A study of Homo sapiens with 3 samples.

Results

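The AKT, mTOR and TSC mRNAs examined here are 9 protein-coding genes of the insulin and growth factor pathway, AKT1, AKT2, MTOR, RPTOR, RICTOR, TSC1, TSC2, RHEB and RPS6KB1. They were chosen by gene symbol, and each matched 1 row of the 57820 genes in both deposited tables. The RNA came from ACHN, an established human renal carcinoma cell line, that stably expresses Flag-tagged MEX3A, a protein that binds RNA. RNA was precipitated from formaldehyde-fixed cells with anti-Flag (Flag library) or with IgG, the background of the method (IgG library), and both libraries therefore carry the same MEX3A-Flag expression. The series holds 3 samples with 1 library each. Input RNA is not used here. A ratio of Flag to IgG therefore compares the precipitates and does not give a level in the cell. The sources used here do not give the promoter that drives MEX3A-Flag, its level against the cell's own protein, or whether the line is a single clone.

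AKT kinases are activated downstream of phosphoinositide 3-kinase and phosphorylate TSC2, which with TSC1 forms a complex that turns off the small GTPase RHEB. Active RHEB stimulates mTORC1, the complex of the kinase mTOR with its scaffold RAPTOR, encoded by RPTOR, and mTORC1 phosphorylates S6 kinase, encoded by RPS6KB1, to promote translation and growth. mTORC2, which holds RICTOR in place of RAPTOR, phosphorylates AKT. The pathway is often altered in renal carcinoma, in which inhibitors of mTORC1 are used as drugs.

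Total counts were 5498124 for Flag and 3412864 for IgG, where a count is the authors' estimated number of reads of a gene, rounded. The 9 members together took 1975 Flag counts and 954 IgG counts, with 92 to 458 per gene for Flag and 21 to 224 for IgG. All 9 had estimated counts within 0.01 of a whole number in both tables. Genes outside that tolerance are called fractional below, since estimated counts that are not whole arise where reads are divided between genes. The 10 kidney epithelial and ACHN markers were detected in both libraries, with 25 to 2532 Flag counts and 16 to 1557 IgG counts, which sum to 1518 CPM of the Flag and 1241 CPM of the IgG library (CPM, counts scaled to the library total). Of 10 markers of other cell types, 8 were at 0 in both, among them PTPRC, CDH5 and ALB, while COL1A1 had 875 and 637 counts and VWF 9 and 0. These are bulk libraries, in which RNA from fewer cells and less RNA per cell cannot be told apart. With 1 library per antibody no difference can be checked against replicates and there are no p-values. Every interval below covers counting error only.

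Of the 9 members, 2 were enriched in the Flag library, RPS6KB1 and RHEB, and 0 were depleted. A gene was called enriched where the 95% counting interval of its ratio of Flag CPM to IgG CPM lay wholly above 2, and depleted where it lay wholly below 0.5. Among the 10811 genes tested, those whose counts in both libraries add up to 20 or more, 28.7% were enriched and 1.32% depleted. The members' share of 22.2% is near this background, and the count of enriched members is therefore not a result about these genes as a group. Their median ratio was 1.24, against 1.93 over all tested genes, and 3 of 9 lay above that median. Summed, the members had a ratio of 1.29 (95% counting interval 1.19 to 1.39). The ratios ran from 0.433 for TSC2 to 5.32 for RPS6KB1, and the ratio of TSC2 was 0.0814 times that of RPS6KB1 (0.0512 to 0.128).

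**Figure D1:**
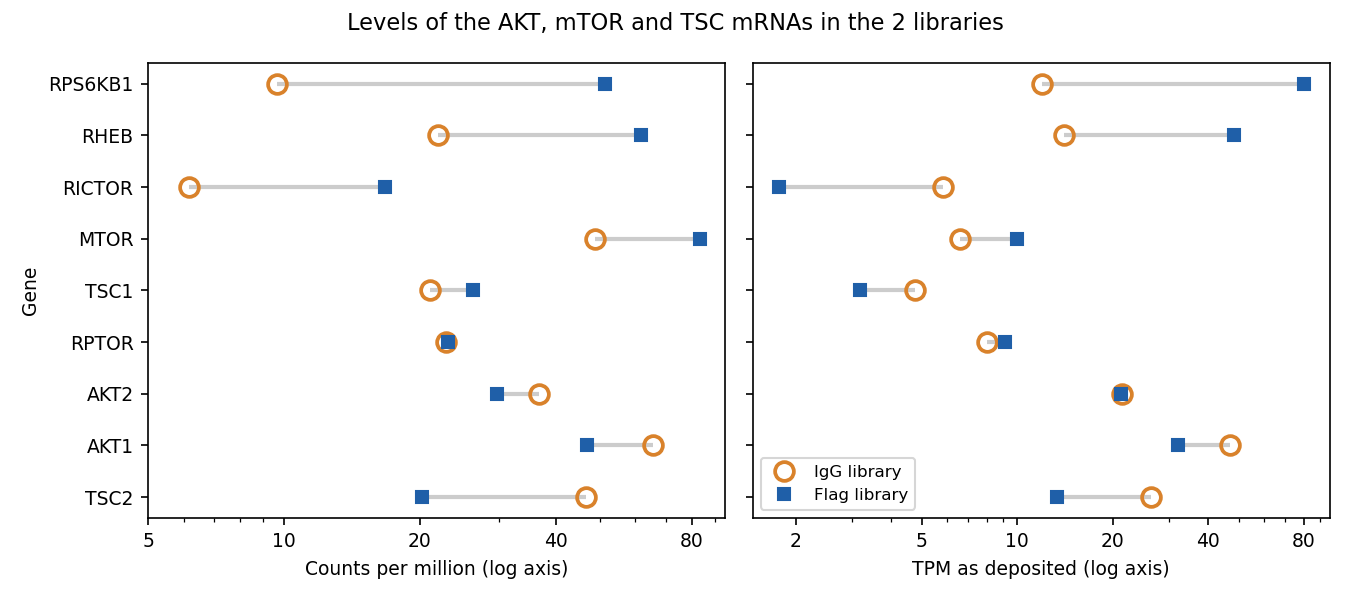
Level of each member in the IgG library (open orange circles) and the Flag library (blue squares), in CPM on the left and in the authors' TPM on the right, both on log axes, with 1 library per antibody and genes ordered by their ratio of CPM. RPS6KB1 moved from 9.67 to 51.5 CPM between the IgG and the Flag library, whereas TSC2 was at 46.6 and 20.2 CPM, and RICTOR and TSC1 change sides between the panels.

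RPS6KB1, the gene of the S6 kinase that mTORC1 activates, had 283 Flag counts and 33 IgG counts, or 51.5 and 9.67 CPM. By counts, which are not divided by length, only RICTOR had fewer in the IgG library, and only MTOR and RHEB had more in the Flag library. By TPM, RPS6KB1 was at rank 5 of the 9 in the IgG library (11.9) and at rank 1 in the Flag library (79.96). Its ratio of 5.32 (3.70 to 7.88) was the highest of the 9, and 14.7% of all tested genes had a higher one. RPS6KB1 was enriched with total counts and kept a ratio of at least 3.08 under every alternative scaling and unit run. The alternative filters could not change its ratio. At a threshold of 4-fold it was not called. Its paralog RPS6KB2, which encodes the second S6 kinase, had 18 and 9 counts and a ratio of 1.24 (0.530 to 3.14). The ratio of RPS6KB1 was 4.29 times that of RPS6KB2 (exact interval 1.56 to 11.0), a pair set side by side after its values were seen.

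RHEB, the GTPase that switches mTORC1 on, had 339 Flag counts and 75 IgG counts, or 61.7 and 22.0 CPM. The Flag level was the higher by 2.81-fold (2.18 to 3.65), with 34.8% of tested genes higher still. The enrichment call of RHEB depended on the scaling. With TMM, a scaling that centres the bulk of genes and multiplies every ratio here by 0.583, its ratio was 1.64 and the call was lost, likewise with median-of-ratios scaling and with totals that leave out mitochondrial and the 10 most abundant genes. The pseudogenes RHEBP2 (10 and 1 counts, fractional) and RHEBP1 (7 and 0, fractional) took few reads, and RHEB summed with RHEBP2 had a ratio of 2.85. RHEBL1, which encodes a RHEB-like GTPase, had 3 counts in each library and was not tested.

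The TSC genes encode the inhibitor of RHEB, and TSC2 alone of them had a ratio below 1. TSC2, the subunit with the GTPase-activating domain, had 111 Flag counts and 159 IgG counts, or 20.2 and 46.6 CPM. This was the only member whose interval lay wholly below that of every other member, with a ratio of 0.433 (0.337 to 0.556), 2.31-fold lower in the Flag library. Of all tested genes 96.9% had a higher ratio. TSC2 was not called depleted, because the upper bound passes 0.5. At its 270 counts over both libraries, a ratio of 0.389 or less would have been needed. With TMM scaling it was depleted at 0.253, the only depleted member, and RPS6KB1 was the only enriched one, where 6.12% of all genes were depleted and 12% enriched. TMM also moved the share of enriched among all called genes from 95.6% to 66.1%.

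TSC1, which stabilises TSC2, had 144 and 72 counts, or 26.2 and 21.1 CPM, and a ratio of 1.24 (0.929 to 1.67) whose interval holds 1. The ratio of TSC1 was 2.86 times that of TSC2 (1.94 to 4.23), so the 2 mRNAs of the complex divided unequally between the precipitates. With the authors' TPM the factor was 1.34, since the TPM ratio of TSC1 was 0.678. The third subunit gene, TBC1D7, had 10 Flag counts and 0 IgG counts, which is too few to enter. RHEB and TSC2, switch and inhibitor, differed by 6.47-fold in their ratios (4.50 to 9.32), a comparison likewise chosen after its values were seen.

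TSC2 and RICTOR each overlap another gene with counts in RefSeq's GRCh38.p14 gene table, and without a stated strand setting reads from overlapping genes cannot be told apart. PKD1, the polycystin gene next to TSC2, had 282 and 168 counts, fractional in both libraries, and a ratio of 1.04. The sum of TSC2 and PKD1 gave 0.746 (0.643 to 0.867). OSMR, which encodes the oncostatin M receptor, had 183 and 48 counts and a ratio of 2.37, and the sum of RICTOR and OSMR gave 2.47 (1.89 to 3.27). The estimated counts of TSC2, RICTOR and OSMR were whole in both libraries. The part of shared reads in either member was not tested.

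MTOR, which encodes the kinase itself, was the member with the most Flag counts, 458 against 167 in the IgG library, or 83.3 and 48.9 CPM. Its ratio was 1.70 (1.42 to 2.04), above 1 beyond counting error. The ratio lay below the median of 1.93 over all tested genes, but its interval holds that median, and 55.4% of tested genes had a higher ratio. With TMM scaling the ratio of MTOR was 0.993. MTOR-AS1, the antisense gene inside MTOR, had 0 counts in both libraries, and ANGPTL7, also within MTOR, had 6 and 0.

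RPTOR, the gene of the mTORC1 scaffold, divided almost evenly, with 127 and 78 counts, or 23.1 and 22.9 CPM, and a ratio of 1.01 (0.756 to 1.36). RICTOR, the gene of the mTORC2 scaffold, had 92 and 21 counts, or 16.7 and 6.15 CPM. It had the fewest counts of the members in both libraries, and its ratio of 2.72 (1.68 to 4.601) was not called, since 113 counts can be called only at 3.51 or above. The ratio of RICTOR was 2.69 times that of RPTOR (1.51 to 4.92).

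The deposited TPM turned this comparison round. RICTOR was at 1.77 TPM for Flag and 5.84 TPM for IgG, a ratio of 0.315 with a pseudocount of 0.1, and its TPM ratio was 0.277 times that of RPTOR. TPM divides counts by an effective length, which the authors' table weights by the transcripts assigned in each library. For RICTOR this length was 9357 bases for Flag and 1042 bases for IgG, an 8.98-fold difference. Across all tested genes 8.14% were more than 2-fold longer and 3.90% more than 2-fold shorter in the Flag library, and 0.222% were more than 8-fold longer in the Flag library. The length in the IgG library rests on 21 counts. Use of 1 length per gene, an alternative chosen after seeing the data, gave RICTOR a ratio of 2.60, but there the length cancels and every count ratio is multiplied by 0.958, so this value has the direction of the counts by construction. It does not decide between the directions of the counts and of TPM.

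TSC1 showed the same on a smaller scale, with effective lengths of 8124 and 4394 bases and TPM of 3.19 and 4.75. These 2 were the only members whose count and TPM ratios lay on opposite sides of 1. For the other 7 the ratio of the lengths lay between 0.796 and 1.12 (AKT1 1445 and 1385 bases, RPS6KB1 638 and 801). By TPM, 2 of 9 members were more than 2-fold higher in the Flag library, RPS6KB1 at 6.65 and RHEB at 3.41, and 1 more than 2-fold lower, RICTOR. Among all tested genes those shares were 44.2% and 6.59%.

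**Figure D2:**
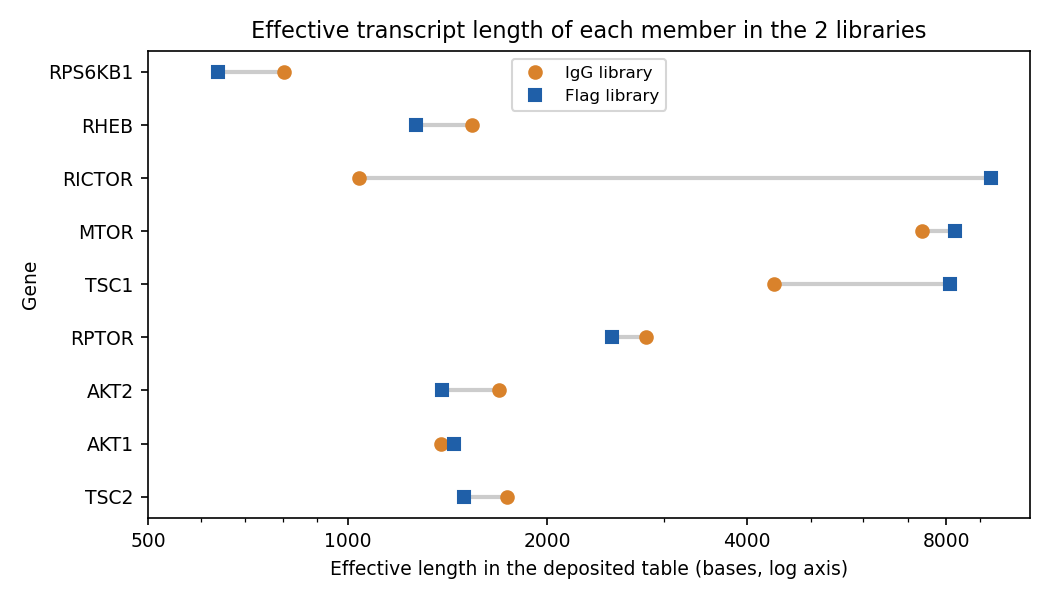
Effective length of each member in the authors' tables, in bases on a log axis, for the IgG library (orange circles) and the Flag library (blue squares), 1 library each. RICTOR stands apart at 1042 and 9357 bases, TSC1 at 4394 and 8124, and the other 7 genes have nearly the same length in both.

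AKT1 and AKT2, which encode the widely expressed AKT kinases, both had ratios under 1. AKT1 had 258 and 224 counts, or 46.9 and 65.6 CPM, and the ratio of 0.715 (0.595 to 0.859) was below 1 beyond counting error. AKT2 had 163 and 125 counts, or 29.6 and 36.6 CPM, a ratio of 0.809 (0.637 to 1.03) whose interval reaches 1. Of all tested genes 88.9% had a higher ratio than AKT1 and 85.0% a higher one than AKT2. The ratio of AKT1 was 0.883 times that of AKT2, and the interval of 0.651 to 1.20 allows a difference of up to 1.2-fold in favour of AKT1 or 1.54-fold in favour of AKT2. With median-of-ratios scaling AKT1 was depleted at 0.413.

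In order of the count ratio the members ran RPS6KB1, RHEB, RICTOR, MTOR, TSC1, RPTOR, AKT2, AKT1 and TSC2. Of the 8 neighbouring pairs in that order, only RPS6KB1 over RHEB (1.90, 1.20 to 3.04) and AKT1 over TSC2 (1.65, 1.21 to 2.26) differed beyond counting error. Over all 36 pairs of members, 29 had an interval that left out 1, with each interval at 95% and not adjusted for the number of pairs.

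Levels can be ordered between genes only per length, by TPM. In the Flag library RPS6KB1 was highest at 79.96 TPM, followed by RHEB at 48.2, AKT1 at 32.2, AKT2 at 21.2, TSC2 at 13.4, MTOR at 9.99, RPTOR at 9.13, TSC1 at 3.19 and RICTOR at 1.77. MTOR and RPTOR were the only neighbours there whose counting intervals met. In the IgG library AKT1 led at 46.9 TPM, before TSC2 at 26.5, AKT2 at 21.4, RHEB at 14.1, RPS6KB1 at 11.9, RPTOR at 8.01, MTOR at 6.58, RICTOR at 5.84 and TSC1 at 4.75. Neighbours met there in 6 of 8 cases, and those that did not were AKT1 over TSC2 and AKT2 over RHEB. These intervals treat each effective length as exact. For RICTOR that length was 9357 bases in the Flag and 1042 in the IgG library, and its place in each order rests on it. AKT1 led the IgG library and RPS6KB1 the Flag library.

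**Figure D3:**
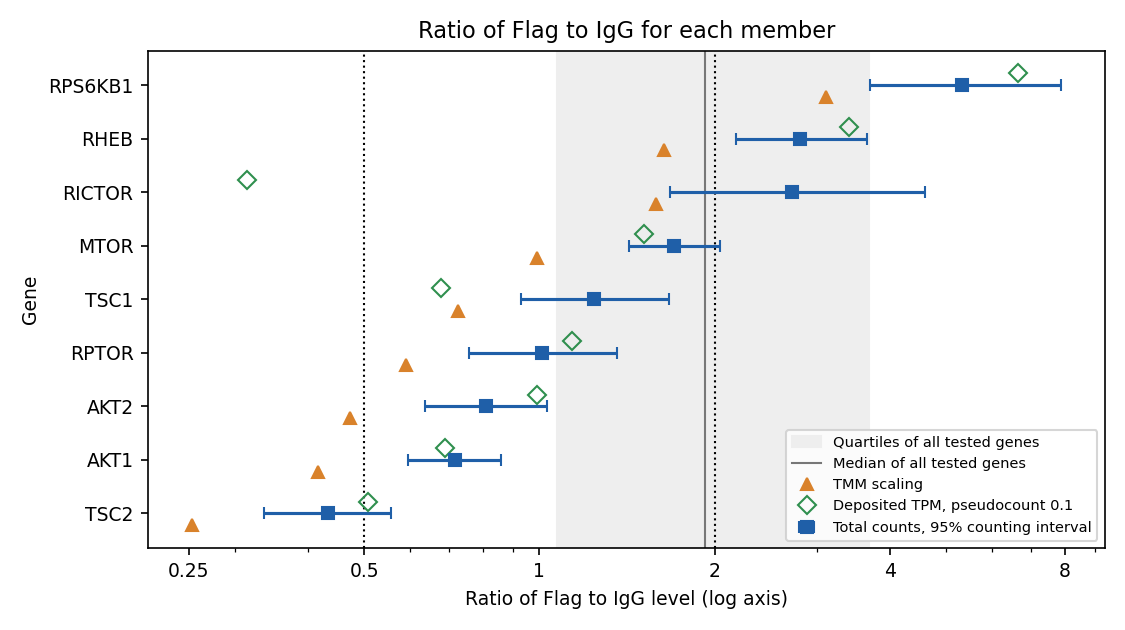
Ratio of the Flag to the IgG level for each member on a log axis, from total counts (blue squares with 95% counting intervals), with TMM scaling (orange triangles) and from the authors' TPM with a pseudocount of 0.1 (open green diamonds). Dotted lines mark 0.5 and 2, and the grey line and band the median of 1.93 and the quartiles of 1.07 and 3.69 over all tested genes; RPS6KB1 and RHEB lie wholly above 2 with total counts, and the TPM value of RICTOR lies at 0.315.

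The rest of the pathway was read from 104 listed symbols, 105 rows of the tables, in 7 role groups. Of these, 86 entered, 28 were enriched (32.6%) and 0 depleted, against the background of 28.7% and 1.32%. Their median ratio was 2.17, beside 1.93 over all genes, so the listed genes as a whole lay close to the background. With TMM scaling 11 were enriched and 2 depleted, EIF4EBP1 and BAD, against 12% and 6.12% of all genes. Among the 11 were PIK3CA, PIK3R1, INPP4B, IRS2, SGK3, PKN2, PRKAA1, SREBF1, FOXO3 and TBC1D4, and the other enriched genes named below were not called with it. By TPM with a pseudocount of 0.1, LAMTOR3 was the only enriched gene that lost its call, and at a pseudocount of 1 INPP4B and PRKAA1 lost theirs too. Among genes with counts in both libraries, the TPM ratio lay more than 1.5 times from the count ratio for LAMTOR3 and PRKAA1, given below, and among others for PIK3R1 (2.35 by TPM), TBC1D4 (3.36), FOXO3 (3.46) and FLCN (2.14).

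Upstream of AKT, 10 of 18 genes of the PI3K group were enriched and 0 depleted, with a median ratio of 3.62. IRS2, an insulin receptor adaptor, had 3041 and 183 counts and a ratio of 10.3 (8.88 to 12.04), and its relative IRS1 a ratio of 3.99 (3.005 to 5.39). PIK3CA and PIK3CB, which encode catalytic subunits of PI3K, had ratios of 7.84 (139 against 11 counts) and 4.05 (111 against 17), while PIK3CD, at 224 and 135 counts, had 1.03 and was not called. Of the regulatory subunit genes, PIK3R1 (9.24, 134 against 9 counts) and PIK3R3 (4.55, 66 against 9) were enriched and PIK3R2 (1.45, 152 against 65) was not.

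PIK3C3, the gene of the class III kinase that acts in autophagy, was also enriched (4.06), as was INPP4B, which encodes a phosphoinositide phosphatase, with 24 counts against 0, at least 4.97-fold higher by a floor of 3 counts per library, which leaves out the counting error of the 24. PDPK1, the gene of the kinase that phosphorylates the activation loop of AKT, had 160 and 38 counts, fractional in both tables, and a ratio of 2.61 (1.83 to 3.83), not called.

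Of 7 other genes that encode subunits or assembly factors of the mTOR complexes and entered, 1 was enriched. This was MAPKAP1, the gene of the mTORC2 subunit SIN1, with 285 and 57 counts and a ratio of 3.10 (2.33 to 4.201). Other mTORC2 subunit genes, PRR5 (1.15, 39 against 21 counts, fractional) and PRR5L (0.993, 24 against 15), were not called. MLST8, shared by both complexes, had 50 and 27 counts and a ratio of 1.15 (0.706 to 1.91). AKT1S1, which encodes the mTORC1 inhibitor PRAS40, had 96 and 80 counts and a ratio of 0.745 (0.548 to 1.02). TTI1 (0.790) and TELO2 (1.06), of the complex that helps assemble mTOR, were not called, and DEPTOR, an inhibitor of mTOR, had 1 and 2 counts and did not enter. The median ratio of the 7 was 1.06, and 1 of them lay above the median gene.

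Among kinases related to S6 kinase by how they are activated, SGK3 had 85 Flag counts and 0 IgG counts, at least 17.6-fold higher by the same floor. PKN2 had 232 and 21 counts and a ratio of 6.86 (4.38 to 11.3). Of the 5 genes of this group that entered, SGK3 and PKN2 were enriched.

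In amino acid sensing at the lysosome, 4 of 22 genes were enriched and 0 depleted, with a median ratio of 1.67. They were FLCN (3.44, 487 against 88 counts, fractional) and FNIP1 (3.44, 183 against 33, fractional), which encode folliculin and its partner, RRAGC (3.72, 78 against 13), of the Rag GTPases, and LAMTOR3 (7.03, 34 against 3), of the Ragulator scaffold. LAMTOR3 was at 1.32 by TPM. The lowest upper bounds were those of LAMTOR1 (0.781, 0.558 to 1.095) and RRAGA (0.687, 0.399 to 1.19).

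Of the energy and stress inputs, 3 of 11 were enriched, PRKAA1 (7.07, 319 against 28 counts), which encodes a catalytic subunit of AMPK, PRKAG2 (2.71, 275 against 63), an AMPK gamma subunit, and CAB39 (3.74, 410 against 68), the scaffold of the kinase LKB1. STK11, which encodes LKB1, was at 1.15 (0.909 to 1.47) and PRKAB1 at 0.652 (0.336 to 1.27). Effective length was 3094 bases in the Flag and 907 in the IgG library for PRKAA1, and its TPM ratio was 2.07.

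Among the substrates and outputs of mTORC1, 4 of 15 were enriched and 0 depleted. SREBF1, a lipid synthesis transcription factor gene, had 2280 and 306 counts and a ratio of 4.63 (4.10 to 5.23). LARP1, whose protein represses mRNAs with 5' terminal oligopyrimidine tracts, was at 2.93 (2309 against 490 counts), EIF4B at 2.82 (1964 against 433, fractional) and the cap-binding protein gene EIF4E at 4.46 (115 against 16, fractional). EIF4EBP1, the gene of the translation inhibitor 4E-BP1, had 23 and 35 counts and a ratio of 0.408 (0.230 to 0.710), not called here and depleted with TMM scaling and with TPM. ULK1, the autophagy kinase gene, had 129 and 103 counts and 0.777 (0.595 to 1.02).

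Of 8 AKT substrates that entered, 4 were enriched, the transcription factor gene FOXO3 (5.35, 431 against 50 counts, fractional), TBC1D4 (6.83, 220 against 20), which encodes a regulator of glucose transporter traffic, MDM2 (3.78, 1308 against 215, fractional), the p53 ubiquitin ligase gene, and GSK3B (3.33, 376 against 70), a glycogen synthase kinase gene. Its paralog GSK3A was at 1.37 (0.832 to 2.32). BAD, which encodes a cell death promoter, had 8 and 16 counts, fractional, and a ratio of 0.310 (0.115 to 0.769), not called.

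**Figure D4:**
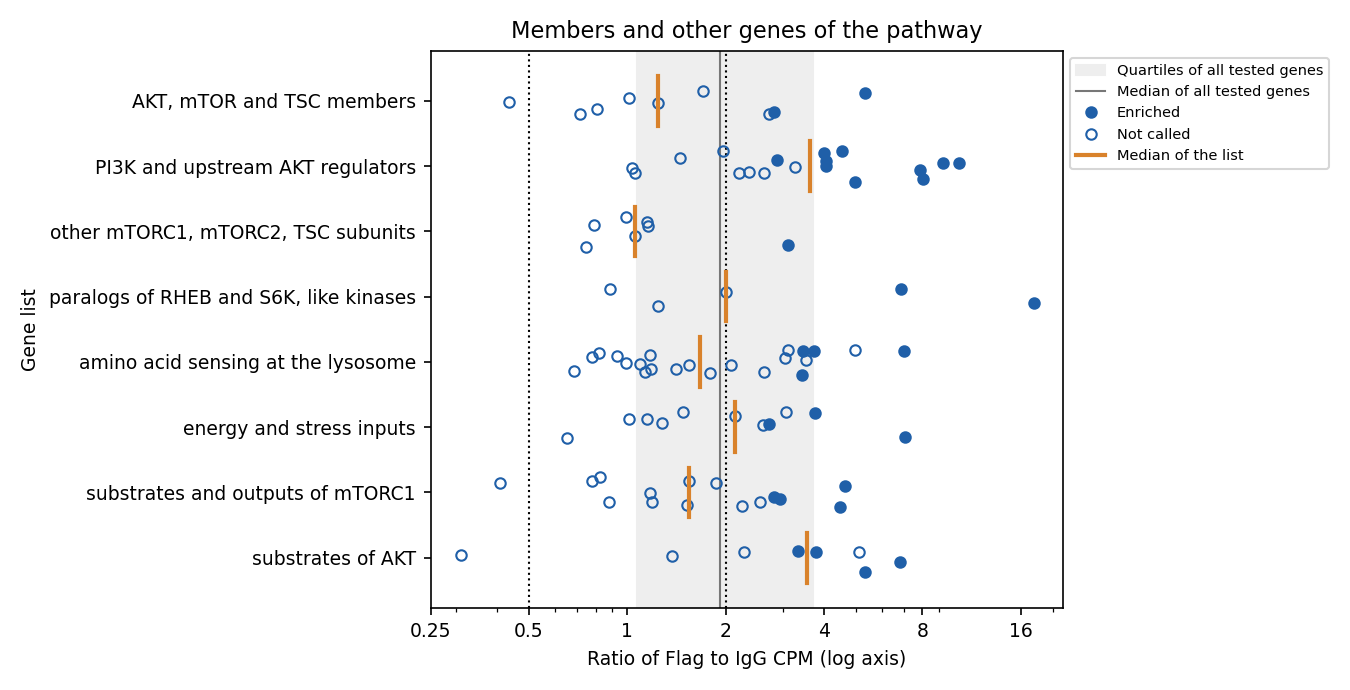
Ratio of Flag to IgG CPM on a log axis for the 9 members and for the 86 other listed genes that entered, by role; filled circles are enriched, open circles were not called, orange bars are list medians, and INPP4B and SGK3, with 0 IgG counts, are drawn at the floor of 3 counts. The PI3K group, with a median of 3.62, lies mostly right of the median gene at 1.93, and 6 of 9 members lie left of it.

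For 8 of the members the listed gene most like each was found by the distance between log2 CPM values in the 2 libraries, a measure over 2 points only. RHEB lay nearest to GSK3B (0.180 log2 units), with 36 of 10640 compared genes nearer. TSC1 lay nearest to PIK3R2 (0.167, 52 nearer) and RPS6KB1 to PRKAA1 (0.293, 81 nearer). RICTOR lay nearest to FNIP2 (0.288, 164 nearer) and AKT2 to STK11 (0.373, 157 nearer). TSC2 to ULK1 (0.663), AKT1 to TELO2 (0.712) and MTOR to FLCN (0.929) were farther apart. Since between 36 and 673 genes of the tables were nearer, none of these likenesses sets a pair apart.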

How the data were processed

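The IgG and Flag libraries of the series were analysed. Expected counts, estimated reads per gene, were deposited by the authors under RSEM's gene-level column names, per the file headers. The authors' TPM and FPKM columns were deposited beside them, and FPKM was not used. Other columns, deposited by the authors, give length and effective length per gene. The submitters' processing notes name STAR and RSEM and the builds GRCh37 and hg19, with no roles. Annotation release, read filters and strand setting: not given in the sources used here. Libraries were prepared from poly(A)-selected RNA, per the labels' protocols.

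Expected counts were rounded and divided by the library total. Genes with at least 20 counts entered. Ratios of CPM have exact Clopper-Pearson intervals at 95%, from the Flag share of a gene's counts, and ratios between genes have exact conditional intervals of the odds ratio (SciPy 1.17.1). Reads carry no molecular identifiers, so intervals and the floor of 3 counts (0.546 CPM in the Flag, 0.879 in the IgG library) cover counting error only. The calling step was checked on simulated counts that carry counting error only. That check does not cover spread between replicates or the choice of scaling. Alternatives used edgeR 4.0.16 (TMM), DESeq2 1.42.0 (size factors), other totals, filters, thresholds, a 99% interval and TPM with pseudocounts of 0.1 and 1.

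Members and lists were chosen with earlier results of these data known. Named genes are the members, further subunits and paralogs, the 2 listed genes at each end of every role group, all other enriched or depleted listed genes, and the nearest gene to each member. All 9 members matched RefSeq's GRCh38.p14 table by symbol; its build differs from the files', and coordinates are left out. Some genes that this rule takes are not reported here.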

Additional observations from a re-analysis of the deposited data

How the results depend on the processing

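No paired analysis was possible because each antibody has 1 library, and for the same reason no replicate could be left out. TMM scaling lowered every log2 ratio by 0.78 (a shift of -0.78), median-of-ratios scaling by 0.79 (-0.79). With TMM scaling 1293 genes were enriched and 662 depleted, among them 1 member each way and 11 and 2 other pathway genes; with median-of-ratios scaling 1269 and 675 genes, 1 and 2 members, and 11 and 2 other pathway genes. Against total counts (95.6% of calls enriched), 66.1% of TMM calls were. Leaving mitochondrial and the 10 most abundant genes out of the totals gave 228 depleted genes and 1 member each way. Without a filter 218 genes were depleted, 1 of them another pathway gene. TPM with a pseudocount of 0.1 gave 4780 enriched and 712 depleted genes, with 1 member and 3 other pathway genes depleted, and with a pseudocount of 1 gave 536, 1 and 2 depleted. A 1.5-fold threshold gave 298 depleted genes and 1 depleted member. A 4-fold threshold gave 924 enriched and 24 depleted genes, 0 enriched members and 9 enriched pathway genes. Protein-coding genes alone, with their own totals, gave 75 depleted genes. The 99% interval, 0.5 counts added and a minimum of 100 counts left every one of these counts within 1.5 times its value. So did the mean length of each gene, chosen after seeing the data, but it multiplies every ratio by 0.958 and therefore tests nothing about length.

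The TSC1 to TSC2 factor of 2.86 was 1.34 and 1.39 by TPM with pseudocounts of 0.1 and 1. The RICTOR to RPTOR factor of 2.69 reversed to 0.277 and 0.360 by TPM, where the effective length of RICTOR differed 8.98-fold between the libraries. RPS6KB1 was enriched under 12 of 13 alternatives, RHEB under 9, and TSC2 was depleted under 4. These totals include the filter alternatives, which kept every member and therefore could not change a member's ratio or call. They also include the mean length of each gene, which tests nothing about length. RHEB lost its call with TMM, with median-of-ratios scaling, with totals that leave out mitochondrial and the most abundant genes, and at the 4-fold threshold. Depth limits the calls: the smallest ratio that could be called enriched was 2.46 for MTOR and 3.51 for RICTOR.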

Other observations

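Several paralogous or partner genes of the pathway divided unequally between the precipitates. The pairs were chosen after their values were seen, and 8 such pairs were computed. EIF4EBP2, with 268 and 89 counts, had a ratio 4.58 times that of EIF4EBP1 (2.47 to 8.56), and the factor by TPM was also 4.58. PRKAA1 had a ratio 3.30 times that of PRKAA2 (1.82 to 5.98), the other catalytic subunit gene of AMPK, but 1.01 times by TPM. MAPKAP1, of mTORC2, had a ratio 2.70 times that of MLST8 (1.49 to 4.81), and 1.82 times by TPM. These intervals cover counting error only.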
